A study of Mus musculus with 4 samples.

Results

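The subunits of the oxidative phosphorylation machinery were examined in mouse splenic T cells that had, or had not, switched on Il10. The genes were chosen by their symbols among the 9546 genes of the deposited rlog table, as those that begin with Ndufa, Ndufb, Ndufc, Ndufs, Ndufv, Uqcr, Cox4 to Cox8 or Atp5, the 4 Sdh genes, Cyc1, Cycs, and the mitochondrial genes mt-Nd, mt-Co, mt-Cytb and mt-Atp. This rule found 94 genes and used no measured value beyond the count filter of that table. Of the 94, 78 encode nuclear subunits or cytochrome c, 8 are messenger RNAs of the mitochondrial genome, and 8 (Ndufaf1 to Ndufaf8) are assembly factors of complex I whose symbols share the same letters.

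Tg4 Nr4a3-Tocky Il10-EGFP mice carry a transgenic T cell receptor that recognizes a peptide of myelin basic protein, a Timer reporter whose fluorescence follows Nr4a3, and an EGFP reporter of Il10. They received 4 mg/kg of the [4Y]-MBP peptide subcutaneously, and 24 h later CD4+ Nr4a3-Timer+ cells of the spleen were sorted into Il10-EGFP+ and Il10-EGFP- T cells. Both populations therefore shared the genotype, the peptide dose and recent T cell receptor signaling, and differed in the Il10 reporter. No unimmunized control was sequenced in this series, and mice of both sexes were used in the study, while their age and the sex of the mouse behind each library are not given in the sources used here. There were 2 libraries per group, and a further replicate pair, which the methods describe as removed as an outlier, was not analysed here. Whether same-numbered libraries of the 2 groups came from the same mouse is not given in the sources used here. The transgene encodes 1 T cell receptor, and whether sorted cells carried other receptors as well is not given in the sources used here. The 3′ end sequencing used here reads mostly the last part of each transcript. In bulk RNA of this kind, fewer cells of a type and less RNA per cell cannot be told apart.

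Oxidative phosphorylation couples the oxidation of NADH and succinate to ATP synthesis in the inner mitochondrial membrane. Complex I (NADH dehydrogenase) and complex II (succinate dehydrogenase) pass electrons to coenzyme Q, complex III passes them to cytochrome c, complex IV (cytochrome c oxidase) passes them to oxygen, and complex V (ATP synthase) uses the resulting proton gradient. Most subunits are encoded in the nucleus and imported, whereas a small set in complexes I, III, IV and V is encoded by mitochondrial DNA, so that each of these complexes is built from the products of both genomes. T cells that are activated raise both glycolysis and respiration, and regulatory T cells are known for a strong reliance on respiration.

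Total counts were between 644679 and 730330 per library. Il10 itself, which checks the sort, was counted 0 and 0 times in Il10-EGFP- cells and 29 and 41 times in Il10-EGFP+ cells, with an adjusted p of 1.3e-08 in edgeR. All 10 CD4 T cell markers of a list taken from textbook knowledge were detected, with a summed level of 3759 and 3449 CPM in Il10-EGFP- and 4343 and 4068 CPM in Il10-EGFP+ T cells. Of these 10, 1 (Trac) was called higher in edgeR, and 5 were higher at an unadjusted p under 0.05. Among all genes tested, 2.35% were called higher and 7.96% were higher at an unadjusted p under 0.05. All CPM values given here were scaled by TMM, apart from the limits for a count of 0. The summed level of the 8 B cell markers with enough counts to be tested was 133 and 184 CPM in Il10-EGFP- against 517 and 564 CPM in Il10-EGFP+ T cells. Of the 8, 5 were called higher, while the defining markers Cd79a and Cd79b, which are not in the sum, were too low to be tested. Tested myeloid markers summed to 111 and 139 against 385 and 201 CPM (2 of 9 called higher, and 6 higher at an unadjusted p under 0.05). For tested CD8 and NK markers the sums were 47.5 and 71.5 against 71.3 and 72.1 CPM (Gzma called higher among 4). Red cell markers that were tested summed to 160 and 140 against 268 and 206 CPM (0 of 4 called, with 2 higher at an unadjusted p under 0.05). Their part in the values below was not tested.

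None of the 94 genes passed the test in either direction. With edgeR's quasi-likelihood test and Benjamini-Hochberg adjustment over 9608 genes, 0 of 94 had an adjusted p under 0.05 on the higher or the lower side in Il10-EGFP+ T cells, where 2.35% of all genes tested were called higher and 1.74% lower. At an unadjusted p under 0.05, 6 of the 94 were higher (7.96% of all genes) and 3 were lower (7.49% of all genes). DESeq2's Wald test also called 0 of 94, against 0.739% of all genes higher and 0.427% lower, and so did limma on the rlog values (1.09% and 0.974%). limma voom called 1 higher (2.44%) and 0 lower (1.81%), and at an adjusted p under 0.1 edgeR gave 3 higher (3.59%) and 0 lower (2.88%). With the replicate number as a block, edgeR called Ndufc1 and Ndufa13 higher, as it did with at least 10 counts in every library. The shares of all genes called in these fits are not given here. The Il10-EGFP+ pair of libraries was entirely above the Il10-EGFP- pair for 24 of the 94 genes, a state found in 22.3% of all genes, and entirely below it for 13, again against 22.3% of all genes.

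The differences were small for most of these genes and were measured more closely than for most of the transcriptome. The median log2 fold change over the 94 was 0.02, with quartiles of -0.11 and 0.20 and extremes of -0.57 (Ndufaf4) and 0.90 (Ndufb11). For all 9608 genes the median was 0.00 and the quartiles were -0.33 and 0.35, but these include many genes with few counts, for which the fitted fold changes scatter more. The median half-width of the 95% confidence interval was 0.37 on the log2 scale for the 94 genes and 0.78 for all genes. For 81 of the 94 genes (86.2%, against 39.2% of all genes) the interval lay within a 2-fold change in either direction, and for 55 it lay within a 1.5-fold change. A change larger than these limits is therefore outside the interval for those genes, whereas smaller changes lie within many of the intervals.

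**Figure D1:**
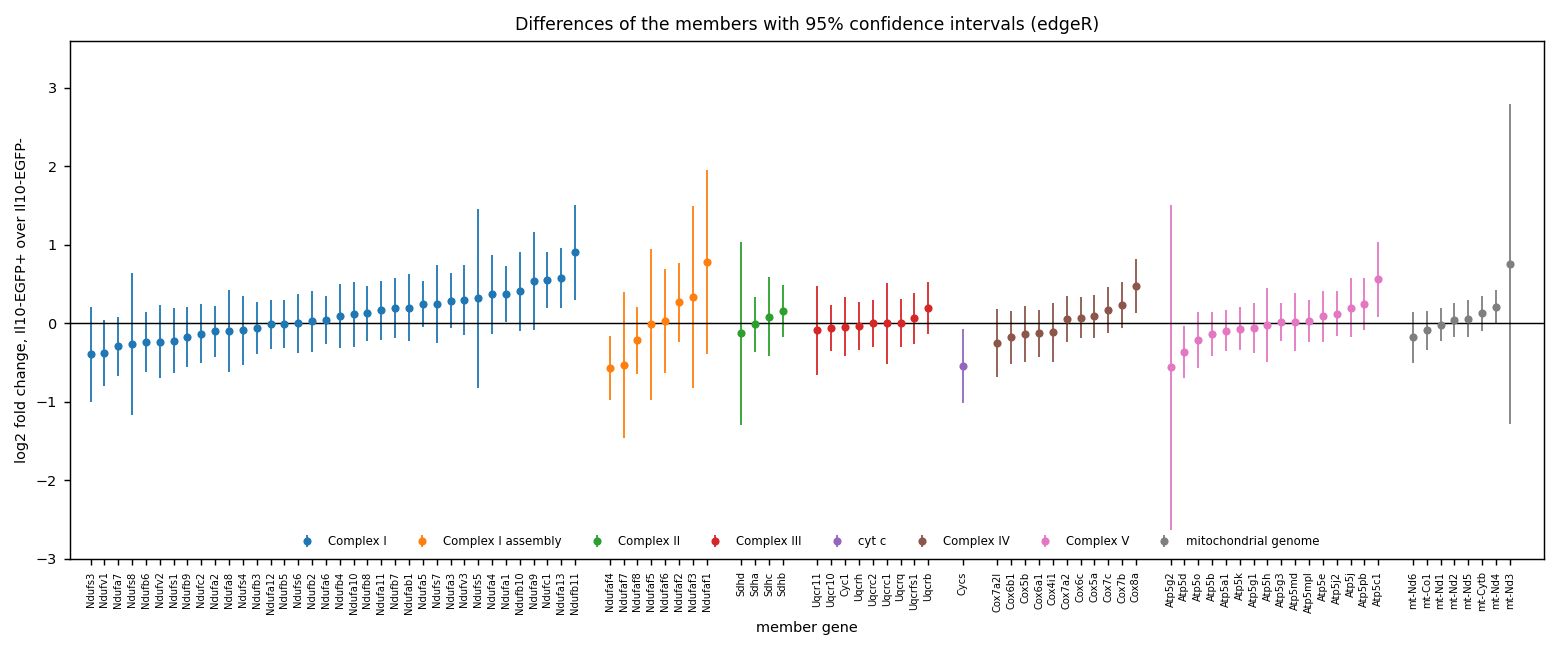
Log2 fold change of the members, 1 of the 94 not drawn (Il10-EGFP+ over Il10-EGFP-, edgeR), sorted within complex, with bars for the 95% confidence interval. Most intervals cross 0, the points run from -0.57 to 0.90, and the widest intervals belong to genes with few counts, such as Atp5g2 and mt-Nd3.

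**Figure D2:**
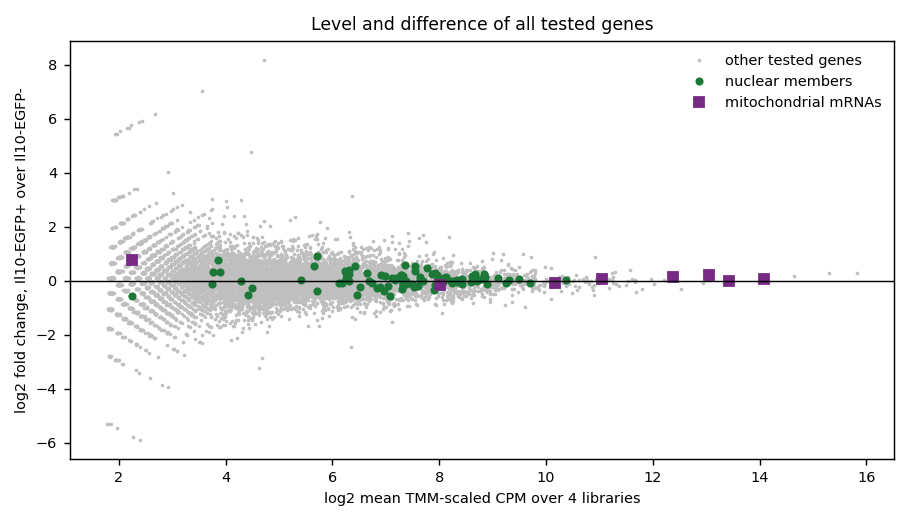
Log2 of the mean TMM-scaled CPM over the 4 libraries against the log2 fold change for all 9608 tested genes (grey), nuclear members (green circles) and mitochondrial mRNAs (purple squares). The spread of all genes narrows as the level increases, and most members sit near 0 within it.

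Complex I is the largest of the complexes, and its 37 nuclear genes held the members with the smallest p-values. Of the 37, 22 had a positive and 15 a negative log2 fold change, with a median of 0.09. Their summed level was 5286 and 5968 CPM in Il10-EGFP- and 5850 and 6039 CPM in Il10-EGFP+ T cells, a difference of 5.65% between the means, and the groups overlapped. Ndufa4 is counted here by its symbol, although its product is now regarded as a subunit of complex IV.

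Ndufb11, an accessory subunit of the membrane arm encoded on the X chromosome (GRCm38 chromosome X, 20615326 to 20617619), was counted 23 and 29 times in Il10-EGFP- cells and 43 and 48 times in Il10-EGFP+ cells. Both Il10-EGFP+ values were the higher, at 68.7 ± 0.788 CPM against 36.8 ± 7.84 CPM (SD, n = 2 each), and edgeR gave a log2 fold change of 0.90 with a standard error of 0.30 and an adjusted p of 0.0795. Its exons overlap those of Rbm10 on the other strand, and 16.7% of the 50-base words (all stretches of 50 bases) in the last part of its transcripts also occur in a pseudogene, Gm6444, which had 0 counts in each library. Whether the counting used the strand is not stated, so it is not known whether reads from Ndufb11 and Rbm10 were told apart.

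Ndufc1 (chromosome 3, 51404677 to 51408988), another small accessory subunit of the membrane arm, had 102 and 114 counts against 138 and 158. The rlog values, 6.75 and 6.88 against 7.11 and 7.14, did not overlap either, and the log2 fold change of 0.55 (95% interval 0.19 to 0.91) came with the smallest adjusted p among the 94 genes, 0.0665. Ndufa13 (chromosome 8, 69894180 to 69902558), an accessory subunit also known as GRIM-19, was counted 93 and 94 times in Il10-EGFP- cells and 104 and 157 times in Il10-EGFP+ cells, so that the second Il10-EGFP+ library stood well above the other three. The log2 fold change of 0.58 had an adjusted p of 0.0749 in edgeR, and it ran from 0.32 without Il10-EGFP+ replicate 2 to 0.78 without Il10-EGFP+ replicate 1, where its adjusted p was 0.0225. With the replicate number as a block, edgeR gave adjusted p-values of 0.0259 for Ndufc1 and 0.0351 for Ndufa13, and DESeq2 with the same block gave 0.781 and 0.837. Neither gene was called by DESeq2 with or without the block.

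Ndufa1 (114 and 119 counts against 119 and 163; log2 fold change 0.37, adjusted p = 0.301, edgeR) is a membrane arm subunit that is also encoded on the X chromosome. Ndufa9, a matrix arm subunit near the coenzyme Q site, had 37 and 22 counts against 30 and 50, and its groups overlapped despite a log2 fold change of 0.54 (interval -0.09 to 1.17). Ndufa5, the complex I nuclear gene with the most counts, had 254 and 274 against 288 and 296 counts, or a log2 fold change of 0.25 with an interval of -0.04 to 0.54. These are accessory subunits of the complex.

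The core subunits of complex I, which hold the NADH site and the iron-sulfur clusters, had a negative median. Sorting the genes by these roles was done after their values had been seen and is given as a description. Of the 7 nuclear core genes, 5 had a negative log2 fold change, the median was -0.23, and the summed level was 672 and 617 CPM in Il10-EGFP- against 601 and 581 CPM in Il10-EGFP+ T cells. Of the 20 accessory genes of the membrane arm, 14 had a positive log2 fold change, the median was 0.14, and the summed level was 2749 and 3265 against 3204 and 3405 CPM. The 9 accessory genes of the matrix arm had a median of 0.00.

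Ndufs3, a core subunit, was counted 51 and 34 times in Il10-EGFP- cells and 27 and 33 times in Il10-EGFP+ cells (log2 fold change -0.40, standard error 0.30). Ndufv1, which binds NADH, had 114 and 87 counts against 80 and 63 (log2 fold change -0.38, interval -0.80 to 0.04). For both genes the scaled values of the groups did not overlap, and the adjusted p was 0.593 for Ndufs3 and 0.399 for Ndufv1. About 53.0% of the 50-base words at the end of Ndufs3 occur in another annotated gene as well, so its count is uncertain.

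Among the 8 Ndufaf assembly factors, Ndufaf4 (chromosome 4, 24898083 to 24905001) had the lowest value of all 94 genes. It was counted 109 and 119 times in Il10-EGFP- cells and 76 and 67 times in Il10-EGFP+ cells, or 160.8 ± 18.2 against 108.5 ± 16.8 CPM (SD, n = 2 each). The groups did not overlap, and the log2 fold change of -0.57 (interval -0.97 to -0.16) had an unadjusted p of 0.00694 and an adjusted p of 0.103 in edgeR. Ndufaf7, a methyltransferase, had 22 and 14 against 13 and 10 counts (log2 fold change -0.53, interval -1.46 to 0.40). The other 6 had between 6 and 115 counts per library and log2 fold changes between -0.22 and 0.78.

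Complex II is the only complex that is wholly nuclear and belongs to the citric acid cycle as well. None of its 4 genes separated the groups. Sdha, the flavoprotein, had 129 and 166 counts against 126 and 147 (log2 fold change -0.01, interval -0.37 to 0.34), and Sdhb, the iron-sulfur subunit, had 159 and 214 against 185 and 203 (0.15, interval -0.18 to 0.49). Sdhc, a membrane anchor, had 56 and 50 counts against 43 and 62, and Sdhd, the other anchor, had only 13 and 7 against 8 and 9, which left an interval of -1.29 to 1.04. The summed level was 485 and 638 CPM in Il10-EGFP- and 574 and 607 CPM in Il10-EGFP+ T cells, so that the Il10-EGFP- libraries enclosed the others.

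The 9 nuclear genes of complex III stayed close to 0, from -0.09 (Uqcr11) to 0.20 (Uqcrb) on the log2 scale, and their median was 0.00. Their summed level was 2242 and 2279 CPM in Il10-EGFP- and 2201 and 2339 CPM in Il10-EGFP+ T cells, a difference of 0.399% between the means. Uqcrc2, a core protein with the most counts among the nuclear genes of the complex, had 272 and 325 against 262 and 295 counts, with an interval of -0.30 to 0.29. The end of Uqcrc2 shares part of its sequence with another annotated gene. Cyc1, cytochrome c1, and Uqcrfs1, the Rieske iron-sulfur protein, had log2 fold changes of -0.04 and 0.06.

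Cytochrome c, which carries electrons from complex III to complex IV and triggers caspases once released, was lower in both Il10-EGFP+ libraries. Cycs (chromosome 6, 50562563 to 50566538) was counted 73 and 76 times in Il10-EGFP- cells and 45 and 50 times in Il10-EGFP+ cells, or 105.0 ± 8.34 against 71.7 ± 0.587 CPM (SD, n = 2 each). The log2 fold change was -0.55 (95% interval -1.02 to -0.07, unadjusted p = 0.0247), and with an adjusted p of 0.226 in edgeR it did not pass the threshold. No 50-base word at its end occurs in another annotated transcript.

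Complex IV had 11 nuclear genes in the test, whose log2 fold changes had a median of 0.06, and a summed level of 3602 and 3881 CPM against 3800 and 4015 CPM. Cox8a (chromosome 19, 7215153 to 7217616), the smallest subunit, was counted 136 and 124 times in Il10-EGFP- cells and 156 and 181 times in Il10-EGFP+ cells. At 182.8 ± 2.60 against 254.2 ± 9.86 CPM (SD, n = 2 each), the difference was larger than the spread of either pair, and edgeR gave a log2 fold change of 0.48 (interval 0.14 to 0.81) and an adjusted p of 0.102. Cox7b, an X-linked subunit, had 275 and 325 counts against 300 and 360 (log2 fold change 0.23), and Cox6c, with the most counts among the nuclear genes of the complex, had 512 and 489 against 450 and 532 (0.07, interval -0.19 to 0.33). Cox7a2l, which joins complexes III and IV in supercomplexes, was the lowest, with 103 and 75 counts against 57 and 82 (-0.25).

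Complex IV is the complex with the most tissue isoforms, and the T cell libraries held the widely expressed form in each case. Cox4i1 was counted 139 and 99 times in Il10-EGFP- cells and 96 and 108 times in Il10-EGFP+ cells (log2 fold change -0.12), Cox6a1 had 254 and 255 against 203 and 231 (-0.13), and Cox6b1 had 169 and 196 against 124 and 178 (-0.18). Cox7a2 had 284 and 331 counts against 293 and 304 (0.06). Their partners Cox4i2, Cox6a2, Cox8b, Cox8c, Cox7b2 and Cox6c2 had 0 counts in every library, Cox6b2 had 2 counts in all and Cox7a1, the heart and muscle form, had 1 and 3 against 1 and 1. A count of 0 allows up to 3 counts, or between 4.11 CPM and 4.65 CPM by the library totals without TMM scaling. This limit covers counting error only. Ndufa4 had 51 and 43 counts against 57 and 56 (0.37, adjusted p = 0.534), while its hypoxia-induced relative Ndufa4l2 had 0 counts throughout.

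The values of complex V were centred on 0. Its 16 nuclear genes split evenly into 8 positive and 8 negative log2 fold changes with a median of 0.00, and their summed level was 5849 and 6417 CPM in Il10-EGFP- and 6066 and 6087 CPM in Il10-EGFP+ T cells. Within the rotary F1 part, the 3 genes for the subunits of the central stalk had log2 fold changes of both signs, and none was called. Atp5c1, the gamma subunit (chromosome 2, 10056016 to 10080510), had 45 and 54 counts against 67 and 69, which gave 0.56 on the log2 scale (interval 0.08 to 1.04, adjusted p = 0.225, edgeR). Atp5d, the delta subunit (chromosome 10, 80138632 to 80145818), had 192 and 191 counts against 139 and 138, with a log2 fold change of -0.36 (interval -0.69 to -0.03, adjusted p = 0.259, edgeR), and its exons overlap those of Cbarp on the other strand. In neither gene did the groups overlap. Atp5e, the epsilon subunit, had 217 and 156 counts against 187 and 181, with overlapping groups and a log2 fold change of 0.09. The catalytic subunits Atp5a1 and Atp5b had log2 fold changes of -0.09 and -0.14.

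The proton-carrying c ring is encoded by 3 nuclear genes that yield the same mature protein. Atp5g3 held most of its counts, 918 and 962 against 845 and 925, and its log2 fold change of 0.01 (interval -0.23 to 0.26) was among the most closely measured. Atp5g1 had 200 and 184 against 167 and 177 counts (-0.05), and Atp5g2 had 2 and 6 against 3 and 2, too few to resolve a change, as the interval of -2.63 to 1.51 shows. For Atp5g2, 55.5% of the 50-base words at the end occur in another gene. Atp5l, with 2 and 3 against 1 and 2 counts and 70.1% of such words shared, fell below the count filter.

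**Figure D3:**
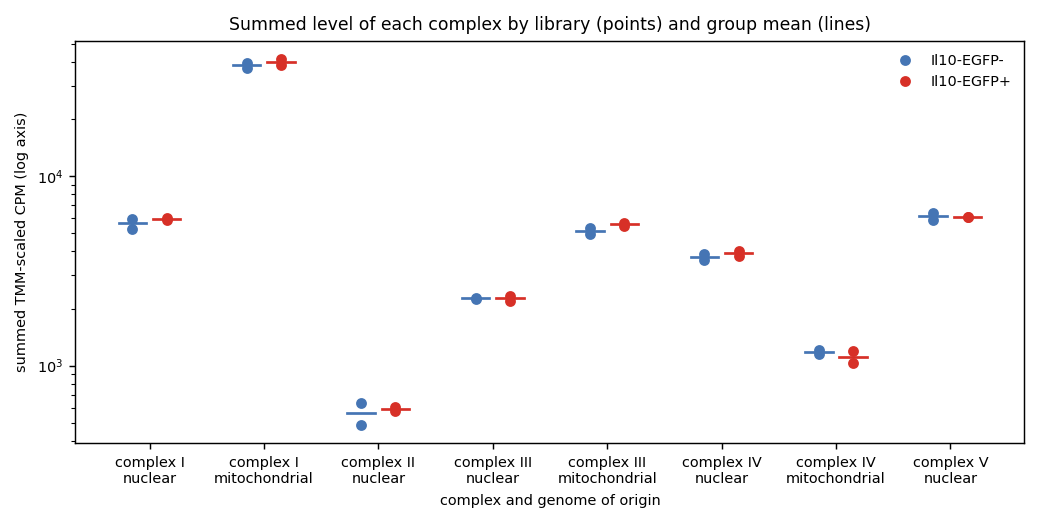
Summed TMM-scaled CPM (log axis) of the members of each complex, split by nuclear and mitochondrial origin, in the 2 Il10-EGFP- (blue) and 2 Il10-EGFP+ (red) libraries, with lines for the group means. In 7 of the 8 sets the groups overlap, the exception being mt-Cytb, the mitochondrial set of complex III, at 4919 and 5302 against 5682 and 5478 CPM.

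The messenger RNAs made in mitochondria took a larger part of the libraries than all nuclear subunits together. The 8 detected mitochondrial mRNAs made up 4.36% and 4.59% of the counts of the Il10-EGFP- libraries and 4.73% and 4.45% of the Il10-EGFP+ libraries (exact 95% binomial intervals of 4.31% to 4.40%, 4.54% to 4.64%, 4.67% to 4.78% and 4.41% to 4.50%, counting error only). The 78 nuclear subunit genes made up 1.77% and 1.93% against 1.82% and 1.90%. The ratio of mitochondrial to nuclear counts was 2.46 and 2.38 in Il10-EGFP- cells against 2.60 and 2.35 in Il10-EGFP+ cells, so the groups overlapped and the balance between the genomes was not seen to differ.

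The counts of the mitochondrial mRNAs differed far more from each other than between the populations. Per kilobase of transcript, mt-Nd2 was the highest at 15559 to 18263 CPM over the 4 libraries, and mt-Nd1 followed at 11161 to 11887 CPM. Next came mt-Nd4 at 5559 to 6621 CPM per kilobase and mt-Cytb at 4300 to 4967 CPM per kilobase. Lower still were mt-Nd5 (1092 to 1234), mt-Co1 (666 to 784) and mt-Nd6 (450 to 554 CPM per kilobase). The ranges of neighbours in this order did not overlap, and the order was the same in CPM without division by length.

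Apart from mt-Nd3, which had too few counts to resolve a change (log2 fold change 0.75, interval -1.28 to 2.79), mt-Nd4 and mt-Cytb had the larger positive values. mt-Nd4, a core subunit of the membrane arm of complex I, was counted 5644 and 5536 times in Il10-EGFP- cells and 5699 and 6324 times in Il10-EGFP+ cells, or 7869 ± 294 against 9077 ± 65.9 CPM (SD, n = 2 each). The groups did not overlap, and the log2 fold change was 0.21 (interval -0.01 to 0.42, adjusted p = 0.355, edgeR). limma voom was the one test that called it, with an adjusted p of 0.0421. mt-Cytb, the cytochrome b of complex III, had 3624 and 3634 counts against 3586 and 3797 (log2 fold change 0.13, interval -0.09 to 0.35).

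The remaining mitochondrial mRNAs lay close to 0 or just below. mt-Nd1 had 7869 and 7797 counts against 6887 and 7528 (log2 fold change -0.02), mt-Nd2 had 12140 and 12055 against 11964 and 11195 (0.04), and mt-Nd5 had 1467 and 1496 against 1420 and 1458 (0.06). mt-Co1, the catalytic subunit of complex IV, had 847 and 830 counts against 751 and 713 (-0.09, interval -0.34 to 0.16). mt-Nd6, the sole mRNA made from the other strand of the mitochondrial genome, had 212 and 180 against 160 and 162 counts and did not overlap between the groups (-0.18, interval -0.50 to 0.15), but it overlaps mt-Nd5 on the opposite strand. The median over the 8 mRNAs was 0.05.

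**Figure D4:**
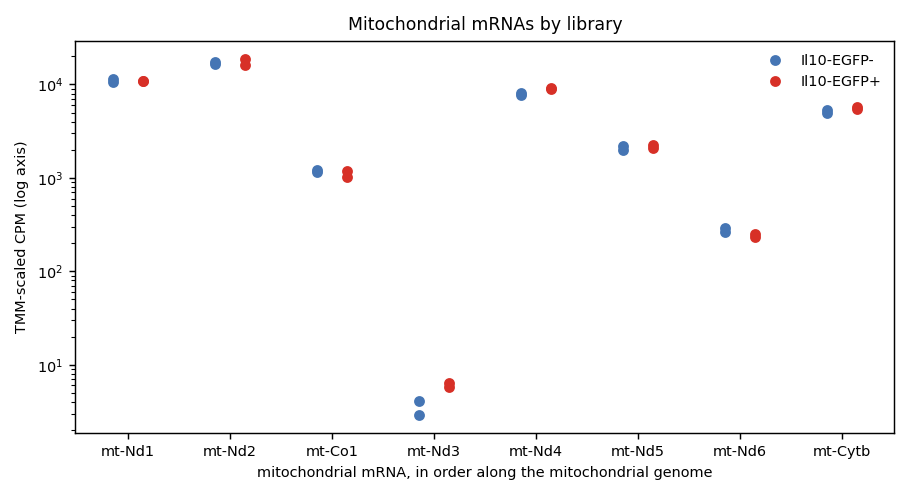
TMM-scaled CPM (log axis) of the 8 detected mitochondrial mRNAs in the 2 Il10-EGFP- (blue) and 2 Il10-EGFP+ (red) libraries, in order along the mitochondrial genome. mt-Nd3 lies far below the other mRNAs and mt-Nd2 lies highest, and the 2 populations sit close together at each gene.

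mt-Nd3 and the 5 mitochondrial mRNAs outside the rlog table were at or near 0, although they encode indispensable subunits. mt-Atp6, mt-Atp8 and mt-Nd4l had 0 counts in every library, mt-Co2 had 1 count in all, mt-Co3 had 2, and mt-Nd3 was counted 3 and 2 times in Il10-EGFP- cells and 4 and 4 times in Il10-EGFP+ cells. The first 5 of these fell below the count filter, so complex V had no mitochondrial member and complex IV had mt-Co1 only. In the transcripts of GENCODE M21 on GRCm38, these mRNAs, except mt-Atp8, share their sequence with mitochondrial-like pseudogenes of the nuclear genome. All 684 bases of mt-Co2 lie in 50-base words that also occur in another annotated gene, as do 99.9% of the bases of mt-Co3, 99.6% of mt-Atp6, 99.0% of mt-Nd4l and 98.3% of mt-Nd3. The share was 0.0% for mt-Nd1, mt-Cytb and mt-Nd6.

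The pseudogenes concerned lie side by side on chromosome 1. Gm28661 (24614885 to 24615565) shares words with mt-Co2, Gm10925 (24613974 to 24614651) with mt-Atp6, Gm28437 (24613189 to 24613971) with mt-Co3 and Gm28438 (24612775 to 24613119) with mt-Nd3, and each of them had 0 counts in all 4 libraries. A further pseudogene on chromosome 2, Gm13341, shares part of mt-Co2 and had 30 and 24 counts in Il10-EGFP- against 28 and 34 in Il10-EGFP+ cells. Reads from such a sequence fit more than one place in the genome, and how the counting treated them is not stated, so the part of the shared sequence in the low counts was not tested. The link was not complete. mt-Atp8 (M, 7766 to 7969), which lies between mt-Co2 and mt-Atp6 and overlaps the latter, had 0 counts with 0.0% of its bases in words shared with an annotated transcript. mt-Co1 had 713 to 847 counts per library with 74.9% of its bases shared.

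The ends of these mRNAs, from which 3′ end reads mostly come, are shown for 3 with shared and 3 with unshared ends. They are the last 60 bases of the GENCODE transcript, 5′ to 3′, with capitals for bases inside 50-base words that also occur in another annotated gene. The 3 mRNAs printed with capitals had between 0 and 4 counts per library, and the 3 in lower case had 3586 counts or more. Other ends go against this division, since the end of mt-Co1 lies wholly in shared words with 713 to 847 counts per library, and the unshared ends of mt-Atp8 and mt-Nd6 come with 0 counts and with 160 to 212 counts per library.
mt-Co2 (M, 7013 to 7696, plus strand): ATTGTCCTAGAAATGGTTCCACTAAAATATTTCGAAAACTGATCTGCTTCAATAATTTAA
mt-Atp6 (M, 7927 to 8607, plus strand): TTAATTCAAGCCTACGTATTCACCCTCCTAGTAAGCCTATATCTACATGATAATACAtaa
mt-Nd3 (M, 9459 to 9806, plus strand): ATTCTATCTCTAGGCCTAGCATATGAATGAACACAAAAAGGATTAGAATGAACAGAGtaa
mt-Nd1 (M, 2751 to 3707, plus strand): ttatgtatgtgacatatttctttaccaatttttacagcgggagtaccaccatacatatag
mt-Nd4 (M, 10167 to 11544, plus strand): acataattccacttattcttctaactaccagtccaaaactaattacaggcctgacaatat
mt-Cytb (M, 14145 to 15288, plus strand): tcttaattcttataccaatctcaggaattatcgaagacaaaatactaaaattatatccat
In mt-Nd4, 63.6% of the bases were shared over the whole length while the last 60 bases were not.

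**Figure D5:**
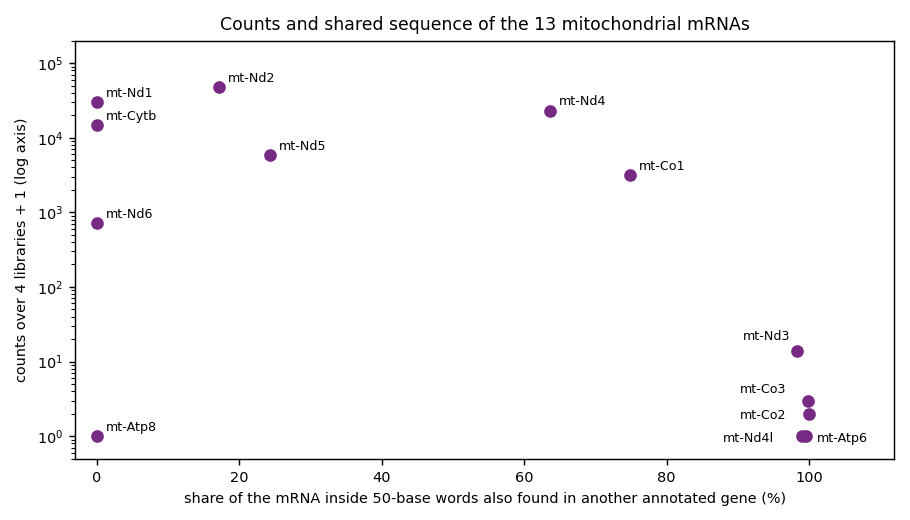
Share of the bases of each of the 13 mitochondrial mRNAs that lie in 50-base words also found in another annotated gene (horizontal axis, %) against its counts over the 4 libraries plus 1 (log axis). The 5 mRNAs with a share above 98% have 13 counts or fewer in all, mt-Atp8 has 0 counts at a share of 0.0%, and the other 7 have 714 or more.

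Among the nuclear members, 51 of 86 had no shared word at their end and 7 had 50% or more of such words shared. Sharing did not always go with low counts there, since Cox5a had 352 to 400 counts per library with 69.3% of its end words shared and Cox7c had 260 to 284 with 65.2%. Exons of 30 nuclear members overlap those of another gene, 5 of them on the same strand.

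All 3 members encoded on the X chromosome had positive values, although none was called. Ndufa1, Ndufb11 and Cox7b each lay higher in both Il10-EGFP+ libraries, as did 22.3% of all genes, and their summed level was 559 and 690 CPM in Il10-EGFP- against 732 and 824 CPM in Il10-EGFP+ T cells. This set was noticed after the values had been seen and carries no test. All 293 tested genes matched to the X chromosome by RefSeq symbol had a median of 0.07 on the log2 scale, with 59 of them apart on the higher and 48 on the lower side.

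Promoters of respiratory chain genes are known for binding sites of NRF1, of ETS family factors such as GABP (NRF2) and of YY1. RefSeq promoter windows on GRCm38.p6, from 250 bases before to 50 bases after a transcription start, were matched by symbol to 65 of the 78 nuclear subunit and cytochrome c genes, in 70 windows. On both strands, the NRF1 motif GCGCANGCG occurred in 20 of the 65 genes (30.8%, against 7.03% of 27025 genes), the ETS motif CCGGAAG in 16 (24.6%, against 9.93%) and the YY1 motif AAGATGGCG in 7 (10.8%, against 1.64%). At least 1 of the 3 was found in 36 of the 65 (55.4%, against 16.5%), and in 0 of the 70 windows did matches to different motifs overlap. The median log2 fold change was 0.01 for the 36 genes with a match and 0.06 for the 29 without.

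The windows of 3 members near the top of the range and of Cycs, near the bottom, are given 5′ to 3′ on the strand of the gene, with capitals for a motif match. They were picked so that each motif is shown at least once. They do not stand for either end of the range, since the windows of Ndufb11 and Ndufa13 and a second window of Atp5c1 held no match.
Ndufc1 (GRCm38.p6 chr3:51408906-51409205, minus strand, YY1 motif): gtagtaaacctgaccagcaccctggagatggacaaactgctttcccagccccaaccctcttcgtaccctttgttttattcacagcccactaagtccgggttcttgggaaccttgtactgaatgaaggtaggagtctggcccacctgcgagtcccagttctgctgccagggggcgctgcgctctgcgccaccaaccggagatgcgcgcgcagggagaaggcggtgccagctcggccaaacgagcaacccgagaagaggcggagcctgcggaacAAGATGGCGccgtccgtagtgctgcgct
Cox8a (chr19:7217567-7217866, minus strand, 2 ETS motifs): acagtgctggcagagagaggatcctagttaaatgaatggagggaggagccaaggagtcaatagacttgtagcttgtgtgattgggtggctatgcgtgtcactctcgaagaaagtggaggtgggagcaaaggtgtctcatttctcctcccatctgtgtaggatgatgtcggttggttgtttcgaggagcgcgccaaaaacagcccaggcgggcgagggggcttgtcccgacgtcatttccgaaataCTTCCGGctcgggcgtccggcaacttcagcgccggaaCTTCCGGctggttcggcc
Atp5c1 (chr2:10080383-10080682, minus strand, NRF1 motif): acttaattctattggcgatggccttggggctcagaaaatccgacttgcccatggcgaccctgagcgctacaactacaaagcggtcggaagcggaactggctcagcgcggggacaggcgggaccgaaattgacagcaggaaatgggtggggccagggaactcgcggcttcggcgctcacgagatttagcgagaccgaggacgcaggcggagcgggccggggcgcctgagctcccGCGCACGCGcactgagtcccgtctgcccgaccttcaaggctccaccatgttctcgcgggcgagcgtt
Cycs (chr6:50566520-50566819, minus strand, NRF1 motif): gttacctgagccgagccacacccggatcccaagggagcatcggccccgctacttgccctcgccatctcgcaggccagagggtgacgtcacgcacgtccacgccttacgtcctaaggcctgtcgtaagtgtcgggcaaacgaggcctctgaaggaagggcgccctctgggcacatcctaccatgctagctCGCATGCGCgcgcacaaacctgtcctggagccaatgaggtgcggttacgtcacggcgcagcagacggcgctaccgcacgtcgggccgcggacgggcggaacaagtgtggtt
A match in these letters is a description of the window and does not show binding in these cells.

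The genes that build, transcribe and feed the complexes were examined from lists chosen with earlier results of these data known. The counts of called genes stand beside 2.35% of all genes called higher and 1.74% called lower in edgeR. Of 48 tested assembly factors of all complexes, which include the 8 Ndufaf genes, 0 were called and the median was -0.02. Of 30 genes for the replication and transcription of mitochondrial DNA and the stability of its RNA, 0 were called, while 21 had a negative log2 fold change and the median was -0.22. Both Il10-EGFP+ libraries were lower for 13 of the 30 and higher for 1, where 22.3% of all genes lay apart in each direction. Lrpprc, which stabilizes mitochondrial mRNAs, had 243 and 318 counts against 167 and 213 (log2 fold change -0.47, adjusted p = 0.0838, edgeR). Tfam, which packages and transcribes mitochondrial DNA, had 103 and 130 against 132 and 115 (0.19), and the mitochondrial RNA polymerase gene Polrmt had 17 and 13 against 17 and 14 (0.15).

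Among 15 tested nuclear regulators of respiratory genes, 1 was called lower (1.74% of all genes) and 0 higher (2.35% of all genes), with a median of -0.01. Myc, a transcription factor that drives growth and mitochondrial biogenesis in activated T cells, fell from 27 and 19 counts to 7 and 7 (log2 fold change -1.59, adjusted p = 0.0465, edgeR). It was not called by DESeq2, nor in edgeR without either one of the Il10-EGFP+ libraries. Pprc1, a coactivator of NRF1, had 32 and 44 counts against 21 and 20 (-0.79, adjusted p = 0.222), while Nrf1 had 44 and 29 against 29 and 24 (-0.35) and Gabpa had 18 and 27 against 24 and 33 (0.43). None of 17 genes of other electron entry routes and coenzyme Q synthesis was called (median -0.01), nor any of 8 carriers and uncoupling genes (median 0.00). Slc25a3, the phosphate carrier, had 1416 and 1444 counts against 1139 and 1227 (-0.17), and Ucp2, an uncoupling protein family member of immune cells, had 54 and 48 against 61 and 74 (0.51, adjusted p = 0.279).

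The ribosomal and transfer RNAs of the mitochondrial genome, which are transcribed together with the mRNAs, formed a further list. Of 14 tested, 0 were called (2.35% of all genes were called higher and 1.74% lower), 12 had a positive log2 fold change and the median was 0.23. The set as a whole was not tested, and some transfer RNAs had few counts, such as mt-Ta with 3 and 4 against 5 and 5. mt-Rnr2, the large ribosomal RNA, was counted 27170 and 24768 times in Il10-EGFP- cells and 28302 and 30097 times in Il10-EGFP+ cells (log2 fold change 0.27, interval 0.07 to 0.47, adjusted p = 0.115, edgeR). The 2 ribosomal RNAs made up 6.26% and 5.92% of the counts against 7.20% and 6.88%, and their counts per count of mitochondrial mRNA were 1.44 and 1.29 against 1.52 and 1.54. The groups did not overlap in either measure, with no test of the ratio.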

How the data were processed

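Splenic CD4+ Nr4a3-Timer+ T cells were profiled in 4 QuantSeq FWD libraries (3′ mRNA-seq), 2 Il10-EGFP+ and 2 Il10-EGFP-, with 644679 to 730330 counts each. The authors aligned the reads to GRCm38 in the QuantSeq FWD pipeline of BlueBee and deposited raw counts for each Ensembl gene, together with rlog values (log2 scale) that DESeq2 derived from these counts. The submitters' processing notes name STAR 2.5.2a, HTSeq 0.6.0, FastQC and DESeq2. Unique molecular identifiers were used against amplification bias, but their use in the deposited counts, and the strand option, are not given in the sources used here. The RNA kit is named differently in the methods and the labels.

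Members were taken by symbol, of which 92 matched directly and 2 by a RefSeq synonym (Atp5pb and Atp5md). A gene entered the test with 10 or more counts in total, which kept 9608 genes for edgeR 4.0.16 (TMM, quasi-likelihood with the legacy fit, R 4.3.3), with p-values adjusted by the Benjamini-Hochberg method at 0.05. CPM, confidence intervals (95%) and sums were computed here. Alternatives were DESeq2 1.42.0, limma 3.58.1, other filters, scalings, thresholds, a replicate block and leaving out each library. The fits were checked on simulated data. Shared sequence was sought in 50-base words of the GENCODE M21 transcripts, over the whole mitochondrial mRNAs and the last 300 bases of nuclear ones.

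The members and gene lists were chosen with earlier results of these data known. Genes named in the text are the nuclear subunit with the most counts in each complex, the mitochondrial mRNAs, Cycs and the Sdh genes, the 5 highest and 5 lowest log2 fold changes with a mean of at least 10 counts, isoform pairs, and called genes of the lists. Other genes were named after their values were seen. A further 26 genes with matching symbols had under 10 counts and were not tested, 16 of them at 0. The values of 1 member are not reported here, although it is part of the counts and sums.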

Additional observations from a re-analysis of the deposited data

How the results depend on the processing

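No member was called lower under any alternative tried. The count of members called higher, 0 with edgeR, was 2 of 88 with at least 10 counts in every library and 1 with limma voom. It was 2 with the replicate block in edgeR and 3 at an adjusted p under 0.1. The other alternatives fitted to all 4 libraries gave 0, the block in DESeq2 included. The listed assembly, maintenance and regulator genes gave 1 call among 132. They gave 2 among 138 with no count filter and 3 among 88 with at least 10 counts in every library. DESeq2 with or without the block called 0 of the listed genes, voom 3 and limma on the rlog values 0. The edgeR block called 6, and an adjusted p under 0.1 gave 4. The share of all genes called is not given here for the count filters and the blocks, so these counts have no background beside them. The methods speak of a replicate pair, but no source used here says that the numbers pair the libraries. Deviations of same-numbered libraries correlated at 0.035 over 4965 genes, which does not settle whether they share a mouse.

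With a library left out, the median of the nuclear subunits ran from -0.06 to 0.10. Signs near 0 turned. Atp5g3 was at -0.01 with library sizes alone, Sdha at 0.01 with voom, and Uqcrc2 at 0.01 with at least 10 counts in every library, voom, limma on the rlog values and the DESeq2 block. With each library left out in turn, log2 fold changes ran from -0.08 to 0.10 for Atp5g3, -0.29 to 0.09 for Cox4i1, -0.10 to 0.23 for Cox7a2, -0.24 to 0.23 for Sdha, -0.10 to 0.44 for Sdhb, -0.13 to 0.26 for Sdhc, -0.45 to 0.32 for Sdhd, -0.18 to 0.19 for Uqcrc2, -0.20 to 0.01 for mt-Co1, -0.07 to 0.03 for mt-Nd1, -0.08 to 0.15 for mt-Nd2 and -0.01 to 0.13 for mt-Nd5. The cause was not tested. Of 554 values of 35 named genes under an alternative, 524 kept their sign and side of the threshold. With 2 libraries per group, a lone library in an arm was assumed to vary like the others.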
